A study of Homo sapiens with 7 samples.

Results

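The recovery of transcription after ultraviolet C (UVC) damage was compared along an average gene at 12 h and at 8 h, with 10 h as the time in between. The libraries compared are 3 of the 7 libraries of the series and were taken by their titles, UV-8h, UV-10h and UV-12h, each time being a single library. All 3 came from MRC5VA cells, a transformed human lung fibroblast line, grown in DMEM and irradiated with UVC at 15 J per square metre. The other 4 libraries were an untreated one and 3 UVC libraries taken at 2, 5 and 24 h, which are used here only as reference. The assay was global run-on sequencing (GRO-seq), in which isolated nuclei are supplied with nucleotides, engaged RNA polymerases extend their transcripts for 5 min with a bromouridine nucleotide, and the labelled RNA is captured and sequenced. The measurement for each library is an average profile, a mean read coverage at every base from 2 kb upstream to 120 kb downstream of position 0, in the deposited units. Position 0 is taken as the transcription start because the signal climbs to a peak just downstream of it.

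UVC light produces pyrimidine dimers and other bulky lesions in DNA. A lesion in the transcribed strand stalls an elongating RNA polymerase II, and transcription-coupled repair removes such lesions preferentially from the transcribed strand. The chance that a polymerase meets a lesion grows with the distance it has travelled, so signal far from the start is lost more than signal close to it. At active genes RNA polymerase II also pauses shortly after initiation, which gives GRO-seq profiles a peak downstream of the start. Many human promoters start a second, divergent transcript, which gives a smaller hump upstream. Recovery is often followed as the return of transcription into the gene body.

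Depth differed between the libraries compared. The coverage corresponds to 12218395 reads at 8 h, 19539255 at 10 h and 25795781 at 12 h, counting a read once for each gene it falls in, so later time and greater depth run together. The part of depth in the results was not tested. Errors given below are 95% counting intervals from these reads. They cover counting error only, since PCR copies cannot be recognised in a profile, and with 1 library per time there is no test between times and no measure of the spread between cultures. A second error, which also comes from within the libraries, is the scatter of neighbouring bins. The 12 h to 8 h ratio of a 1-kb bin scattered about the running median of 11 bins with an SD of 0.0074 (log2), or 0.516%, which is 1.31 times the median counting SE of 0.0057. For 50-bp bins the SD was 0.012 (log2), or 0.869%, which is 1.53 times their median counting SE of 0.0082. The profile is an average over genes, so a lower peak at every gene and a peak at fewer genes cannot be told apart. Likewise, fewer transcribing cells and less RNA per cell cannot be told apart.

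Between 8 h and 12 h the start of the average gene and its body as a whole went in opposite directions in the deposited values. Mean signal from 0 to 1 kb was 7.47 in the 8 h library, 6.83 at 10 h and 5.91 at 12 h (deposited units), and the untreated library stood at 7.46. Mean signal from 1 to 100 kb was 3.10 at 8 h, 3.23 at 10 h and 3.35 at 12 h, against 3.30 untreated. In these deposited values the start lay at the untreated level at 8 h and well under it at 12 h. The mean over the whole body went from under the untreated level to slightly over it, but it joins unlike stretches. From 1 to 10 kb 8 h was already above untreated (4.94 against 4.08). From 30 to 100 kb 12 h was still below untreated (2.89 against 3.13). The ratio of start to body within a library does not depend on how the library was scaled. It was 2.41 at 8 h (95% counting interval ± 0.0091), 2.11 at 10 h (± 0.0067) and 1.77 at 12 h (± 0.0053), and the order by time was strict. The 12 h ratio was 0.734 times the 8 h ratio (log2 -0.45, 95% counting interval -0.45 to -0.44). The step from 8 to 10 h had a log2 of -0.19 and the step from 10 to 12 h one of -0.26. In the untreated library the ratio was 2.26, so 8 h lay above it and 10 h and 12 h below it. The ratio was 2.48 at 2 h, 2.14 at 5 h and 2.43 at 24 h, which leaves the 12 h library with the lowest start-to-body ratio of the 7.

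**Figure D1:**
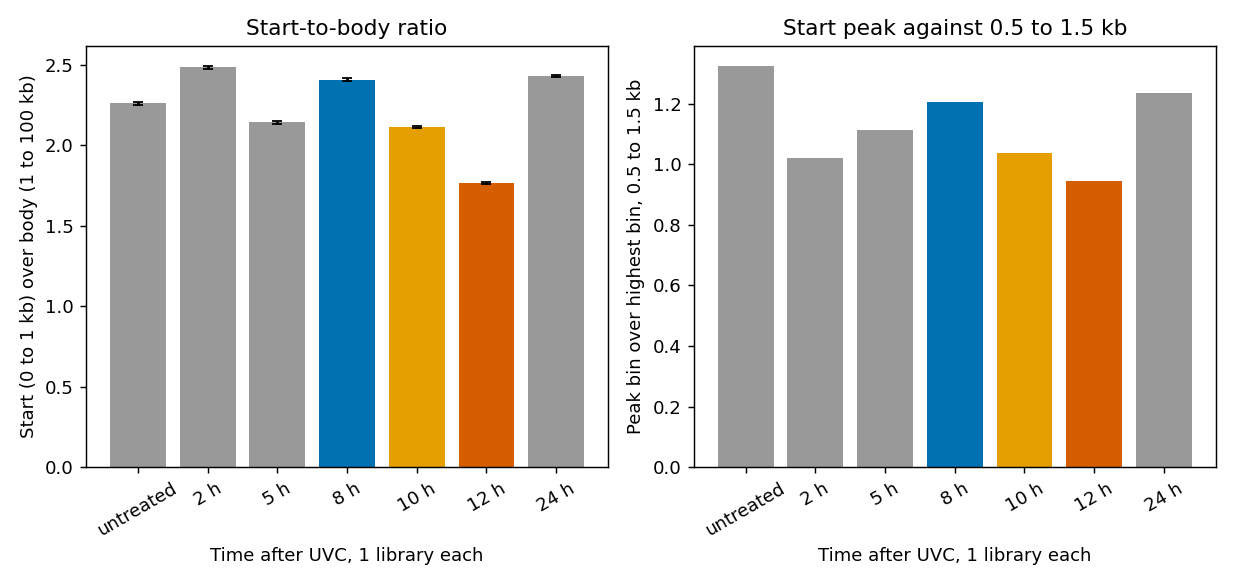
Start-to-body ratio (left, mean signal from 0 to 1 kb divided by mean signal from 1 to 100 kb, error bars are 95% counting intervals) and height of the start peak divided by the highest 50-bp bin from 0.5 to 1.5 kb (right, no error bars), 1 bar per library by time after UVC. The 8, 10 and 12 h libraries are coloured; both ratios go down from 8 h (2.41 and 1.21) to 12 h (1.77 and 0.944), the lowest bar of each panel.

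As a share of all signal from 0 to 100 kb, the first kilobase held 2.37% at 8 h (95% Wilson interval 2.36 to 2.38), 2.09% at 10 h (2.08 to 2.10) and 1.75% at 12 h (1.75 to 1.76). The stretch from 1 to 10 kb held 14.1%, 13.7% and 13.5%. The stretch from 10 to 30 kb hardly moved, at 24.88%, 24.85% and 24.89%. From 12 h minus 8 h, the shares changed by -0.62 percentage points in the first kilobase, by -0.67 from 1 to 10 kb, by 0.014 from 10 to 30 kb and by 1.27 from 30 to 100 kb. The first kilobase and the 9 kb after it therefore gave up nearly equal amounts of share, although the first kilobase is far shorter.

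The bins that carry the start difference were examined next, in 120 bins of 50 bp from -2 to 4 kb. A bin is called here when its 12 h to 8 h ratio is past 1.1-fold in either direction. As deposited, 55 of the 120 bins (45.8%) were called lower at 12 h and 0 (0%) higher. Of these 55 bins, 53 formed an unbroken run from -1.8 to 0.85 kb and the other 2 lay between -2 and -1.9 kb. Scaling each profile to its own sum from 0 to 100 kb lowers every 12 h to 8 h ratio by 0.10 on the log2 scale. On that scale 63 of the 120 bins (52.5%), all those from -2 to 1.15 kb, were called lower and 0 higher, and every one of the 120 bins had a ratio under 1. Neighbouring 50-bp bins are not separate measurements, because each read was extended to 250 bases and covers several of them.

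The start peak, the signature of promoter-proximal polymerase, had its highest 50-bp bin at 150 to 200 bp in all 3 libraries. Its height was 8.82 ± 0.061 at 8 h, 7.35 ± 0.045 at 10 h and 6.07 ± 0.036 at 12 h (95% counting intervals). These do not overlap, and the height went down by a similar factor in each step, to 0.834 times from 8 to 10 h and to 0.825 times from 10 to 12 h. This was also the bin with the lowest 12 h to 8 h ratio of all, at 0.688 (log2 -0.54, 95% counting interval -0.55 to -0.53). On the own-sum scale its ratio was 0.642 (log2 -0.64, -0.65 to -0.63). The untreated library stood at 9.34 in the same bin, so as deposited 8 h lay close under it and 12 h far under it. At 24 h the peak was 9.78, higher than at any of these times. At 2 h and 5 h the highest bin, also from 150 to 200 bp, stood at 7.65 and 7.27, both below 8 h and above 12 h.

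Upstream of position 0 lies a smaller hump, where divergent transcripts and other upstream transcription would fall. The strand handling of the profiles is not given in the sources used here, so the hump is described by position only. Its highest 50-bp bin, from -300 to -250 bp at 8 and 10 h and from -350 to -300 bp at 12 h, stood at 5.43, 4.83 and 3.88. At 12 h the hump was 0.716 times its 8 h height, near the 0.688 of the start peak. Peak height divided by hump height was 1.62 at 8 h, 1.52 at 10 h and 1.56 at 12 h, so both went down roughly in proportion. In the untreated library it was 1.56. At 2 h the same ratio was 2.51. Between hump and peak, in the bin from -100 to -50 bp, the 12 h to 8 h ratio was 0.738, a little higher than on either side.

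The difference faded with distance upstream. Mean signal in the kilobase before position 0 was 4.53 at 8 h, 4.12 at 10 h and 3.49 at 12 h, a log2 ratio of 12 h to 8 h of -0.38 (95% counting interval -0.39 to -0.37). From -2 to -1 kb it was 2.74, 2.62 and 2.44, a log2 ratio of -0.17 (-0.18 to -0.16). In this farthest stretch all 3 libraries were above the untreated value of 2.22, with 12 h the nearest to it. In the nearer kilobase, where the untreated library stood at 4.61, all 3 were below it as deposited and 12 h was the farthest. Divided by each profile's mean from 0 to 100 kb, signal in the nearer kilobase was 1.44 at 8 h, above the untreated 1.38, while 10 h (1.26) and 12 h (1.03) were below it.

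**Figure D2:**
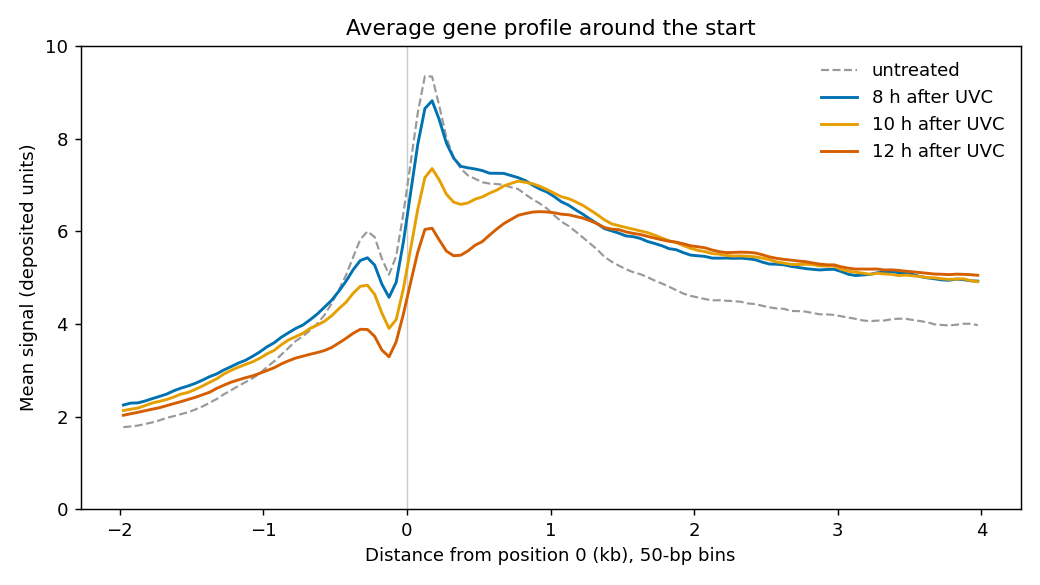
Mean signal in 50-bp bins (deposited units) against distance from position 0, from -2 to 4 kb, with 1 line per library at 8, 10 and 12 h after UVC and a dashed line for untreated cells. The peak at 150 to 200 bp steps down from 8.82 to 7.35 to 6.07, and a second maximum appears beyond 0.5 kb at 10 h and 12 h. The 8 h and 12 h lines cross at 1.35 kb, and the 10 h line is above both from 0.85 to 1.85 kb.

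Downstream of the peak the shape of the profile changed as well as its height. At 8 h the signal went down from the peak and then flattened, with 7.34 at 450 bp, 7.25 at 650 bp and 7.16 at 750 bp (bin starts). Its highest bin from 0.5 to 1.5 kb was the first of that range, as in the untreated and 24 h libraries, so there was no second maximum. At 10 h the signal dipped to 6.58 in the bin from 350 to 400 bp and climbed again to 7.08 from 750 to 800 bp, 1.08 times the dip. At 12 h it dipped to 5.47 from 300 to 350 bp and climbed to 6.42 ± 0.037 from 900 to 950 bp, 1.17 times the dip. The second maximum at 12 h was thus higher than the start peak of the same library, which was 0.944 times as high, while at 10 h the peak was still 1.04 times the second maximum. The dip was chosen for description after the profiles were seen. A dip between the start peak and a second maximum was also present at 2 h, where the highest bin was that from 850 to 900 bp and 1.12 times the dip, and at 5 h, where it was that from 700 to 750 bp and 1.04 times the dip.

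The loss at 12 h was steepest over the first 500 bases and small by 1 kb. From 0 to 0.5 kb mean signal was 7.82 at 8 h, 6.70 at 10 h and 5.62 at 12 h, a log2 ratio of 12 h to 8 h of -0.48 (95% counting interval -0.49 to -0.47). From 0.5 to 1 kb it was 7.13, 6.95 and 6.21, a log2 ratio of -0.20 (-0.21 to -0.19). From 1 to 2 kb it was 6.02, 6.18 and 6.03, and 12 h and 8 h did not differ beyond counting error (log2 0.0043, -0.0030 to 0.012). The 12 h to 8 h ratio in 50-bp bins passed from 0.776 at 450 bp to 0.869 at 700 bp and 0.948 at 1000 bp (bin starts). It stayed above 1 from 1.35 kb onward in the deposited values. On the own-sum scale the earliest run of 5 bins above 1 started at 19 kb, and the ratio was under 1 again in some bins beyond 92 kb.

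**Figure D3:**
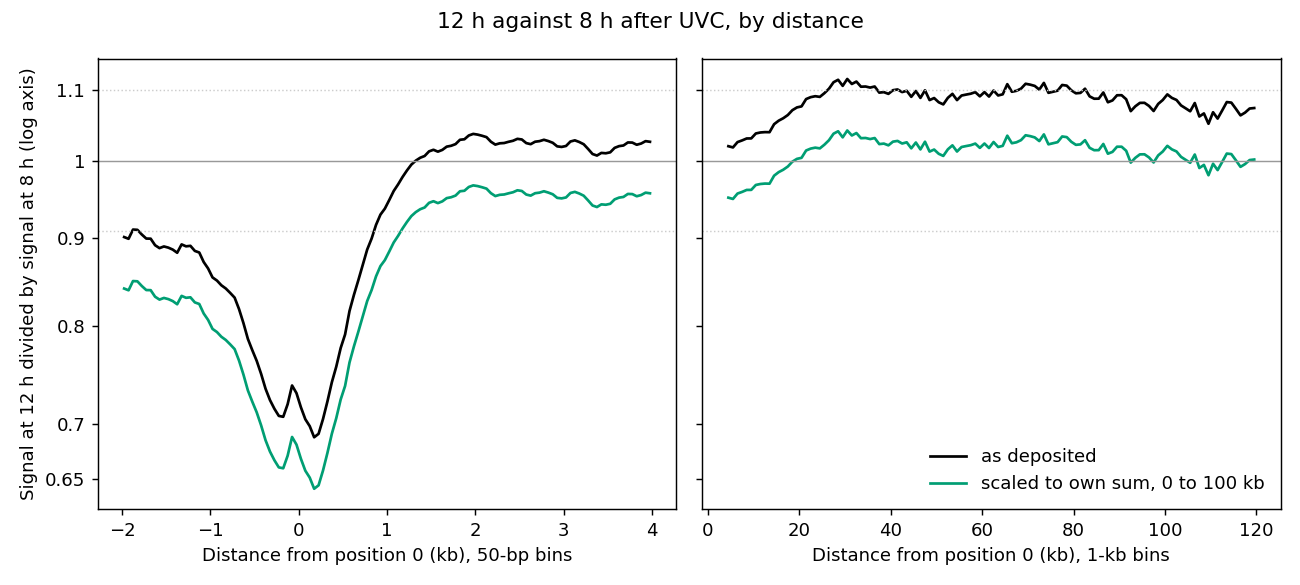
Signal at 12 h divided by signal at 8 h (log axis) against distance from position 0, in 50-bp bins from -2 to 4 kb (left) and 1-kb bins from 4 to 120 kb (right), as deposited (black) and with each profile scaled to its own sum from 0 to 100 kb (green). Dotted lines mark 1.1-fold in each direction; the black line has its lowest value, 0.688, at 150 to 200 bp, passes 1 at 1.35 kb and has its highest value, 1.12, at 30 to 31 kb, while the green line stays within 1.1-fold beyond 1.15 kb.

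In the near gene body 12 h exceeded 8 h by little. From 1 to 4 kb mean signal was 5.46 at 8 h, 5.53 at 10 h and 5.54 at 12 h, a log2 ratio of 0.022 (95% counting interval 0.018 to 0.027). From 4 to 10 kb it was 4.68, 4.71 and 4.80, a log2 ratio of 0.036 (0.032 to 0.039). The highest 50-bp ratio was 1.04, in the bin from 1.95 to 2 kb, with 5.49 at 8 h and 5.69 at 12 h. All 3 libraries stood far above the untreated values of 4.59 and 3.83 over these stretches. The direction here rests on the scale: scaled to own sums, 12 h was lower than 8 h, with log2 ratios of -0.078 (-0.083 to -0.073) and -0.065 (-0.068 to -0.061).

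Beyond 10 kb the excess of 12 h grew as deposited until near 30 kb and was similar or smaller, with ups and downs, at greater distances. In 116 bins of 1 kb from 4 to 120 kb, 12 h was above 8 h by more than counting error in 116 of 116 as deposited. The ratio was 1.02 in the bin from 5 to 6 kb, the lowest, then 1.04 at 10 kb, 1.08 at 20 kb and 1.102 at 26 kb (bin starts). It was highest from 30 to 31 kb, at 1.12 (log2 0.16, 95% counting interval 0.15 to 0.17), where signal was 3.56 at 8 h, 3.78 at 10 h and 3.97 at 12 h. In untreated cells it was 3.69. All 11 bins from 26 to 37 kb were past 1.1-fold. In total 22 of the 116 bins (19.0%) were called higher and 0 (0%) lower. The other 11 called bins lay between 41 and 83 kb. Past the highest bin the ratio was 1.08 from 51 to 52 kb, 1.11 from 73 to 74 kb and 1.07 from 92 to 93 kb. The log2 of 0.151 from 73 to 74 kb lay inside the counting interval of the highest bin, so that bin does not stand apart.

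Over wider stretches, mean signal from 10 to 30 kb was 3.92 at 8 h, 4.06 at 10 h and 4.2001 at 12 h, a log2 ratio of 0.10 (95% counting interval 0.099 to 0.10). From 30 to 60 kb it was 3.14, 3.31 and 3.44, a log2 ratio of 0.13 (0.13 to 0.14). From 60 to 100 kb it was 2.26, 2.36 and 2.47, a log2 ratio of 0.13 (0.13 to 0.13). In the tail from 100 to 120 kb it was 1.958, 2.03 and 2.10, a log2 ratio of 0.10 (0.098 to 0.10), and the lowest 1-kb ratio of this tail was 1.051, from 109 to 110 kb. The untreated values were 3.56, 3.50, 2.85 and 2.53, so that from 60 kb onward 12 h remained well below untreated. From 10 to 30 kb it lay above untreated. From 30 to 60 kb its mean lay slightly below, but this stretch holds a crossing. In 1-kb bins 12 h was above untreated from 30 to 40 kb and below it from 42 kb onward. The values at 12 h and untreated were 3.97 and 3.69 from 30 to 31 kb, and 2.88 and 3.12 from 59 to 60 kb.

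**Figure D4:**
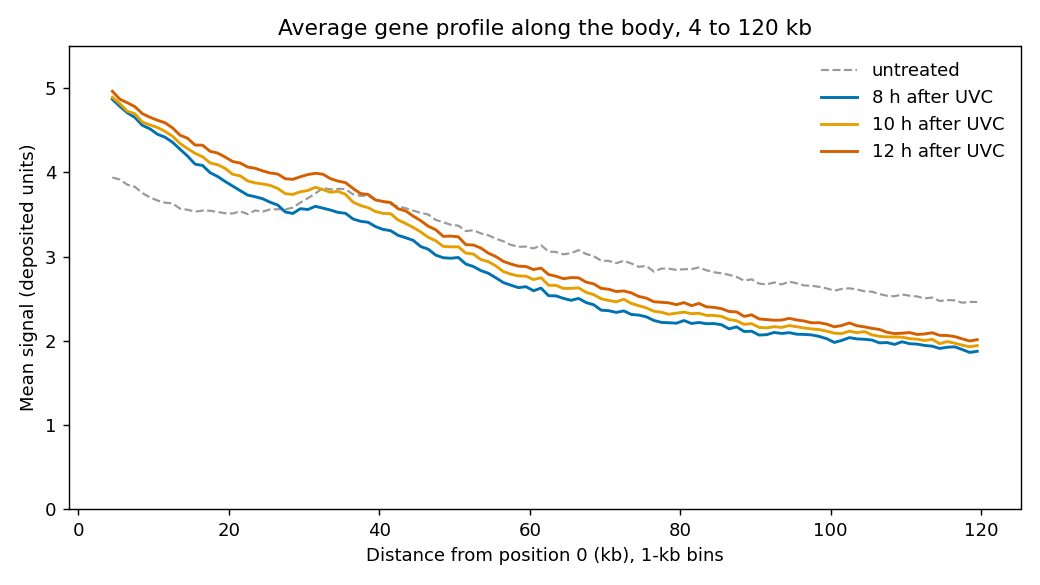
Mean signal in 1-kb bins (deposited units) against distance from position 0, from 4 to 120 kb, with 1 line per library at 8, 10 and 12 h after UVC and a dashed line for untreated cells. The lines keep the order 8 h, 10 h, 12 h from low to high in all 116 bins; 12 h is nearer to untreated than 8 h from 32 kb onward.

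On the own-sum scale the body differences shrank to a few percent and changed sign along the gene. Own sums give both profiles the same mean from 0 to 100 kb, so a ratio that varies must fall on both sides of 1. The sign change itself was thus fixed in advance, and only its position and size come from the data. The 1-kb ratio ran from 0.949 (5 to 6 kb) to 1.04 (30 to 31 kb), and 0 of 116 bins (0%) were called in either direction. It was under 1 in 26 bins, 17 of them beyond counting error, and over 1 in 90 bins, 75 of them beyond counting error. All 73 bins from 19 to 92 kb were over 1. From 10 to 30 kb the scaled windows did not differ beyond counting error (log2 0.00081, 95% counting interval -0.0013 to 0.0029). From 30 to 60 kb the log2 ratio was 0.033 (0.031 to 0.035), from 60 to 100 kb 0.029 (0.027 to 0.031) and from 100 to 120 kb 0.00092 (-0.0021 to 0.0039). The start, in contrast, was lower on both scales: the log2 ratio from 0 to 1 kb was -0.34 (-0.34 to -0.33) as deposited and -0.44 (-0.44 to -0.43) scaled.

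Summed over distance, the body gain far exceeded the start loss in the deposited values, over a far longer stretch. Signal multiplied by length was 9.73 signal-kb at 8 h and 8.12 at 12 h from 0 to 1.35 kb, a change of -1.61. It was higher by 24.3 signal-kb from 1.35 to 100 kb, where it was 305.1 at 8 h and 329.4 at 12 h. As a share of the 8 h amount, the start stretch changed by -16.6% and the body stretch by 7.97%. Upstream, from -2 to 0 kb, the change was -18.5%. Whether total signal rose in the cells cannot be read from these sums, because the factor that scaled each library is not given in the sources used here. On the own-sum scale loss and gain cancel by construction, at -1.53 from 0 to 19 kb and 1.53 from 19 to 100 kb.

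Distance to the untreated library also split by position. In 88 of the 116 bins of 1 kb, all of those from 32 to 120 kb, 12 h was nearer to untreated than 8 h was. From 1.35 to 32 kb 8 h was the nearer in every bin, because both libraries were above or near untreated there and 12 h was higher. From -0.8 to 0.85 kb 8 h was again nearer in every bin, with 12 h lower. In the remaining stretches, -2 to -0.8 kb and 0.85 to 1.35 kb, 12 h was nearer. This comparison uses the deposited scale and a single untreated library. In the near body it turns round with the scale. Divided by each profile's mean from 0 to 100 kb, 12 h was nearer to untreated than 8 h from 1 to 10 kb. From 1 to 4 kb the scaled means were 1.73 at 8 h, 1.64 at 12 h and 1.37 untreated. From 4 to 10 kb they were 1.49, 1.42 and 1.15.

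The 10 h library lay between 8 h and 12 h at most distances. As deposited it was between them in 116 of 116 bins of 1 kb and in 93 of 120 bins of 50 bp (77.5%). The exceptions fell in 3 stretches. In the 20 bins from 0.85 to 1.85 kb 10 h was above both, beyond counting error in 15. In 6 bins from 3.25 to 3.55 kb and in the bin from 3.95 to 4 kb it was below both, beyond counting error in 1. The farthest excursion above was in the bin from 1.3 to 1.35 kb, where 8, 10 and 12 h stood at 6.1625, 6.36 and 6.1619, an excess of 3.18% over the higher of the pair. The farthest below was from 3.35 to 3.4 kb, with 5.13, 5.07 and 5.17, where the lower of the pair exceeded 10 h by 1.24%.

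The stretch where 10 h exceeded both is where 8 h and 12 h cross. The 10 h profile stayed above 8 h from 0.85 kb onward for at least 5 bins in a row, 12 h stayed above 8 h from 1.35 kb, and 12 h stayed above 10 h only from 1.85 kb. On the own-sum scale 10 h was between 8 h and 12 h in 120 of 120 bins of 50 bp and in 94 of 116 bins of 1 kb (81.0%). In the other 22 bins, 3 above and 19 below, it was outside by less than counting error. Those bins started at 17 kb or beyond, and most lay past 87 kb, where 8 h and 12 h nearly coincided after scaling. Over the whole window from 100 to 120 kb, however, 10 h was below both beyond counting error on that scale. Its scaled mean was 0.6206, against 0.6221 at 8 h and 0.6225 at 12 h. The gap to 8 h passed the counting interval by little. The 12 h to 8 h ratios of 1-kb bins scattered 1.31 times as widely as counting error, so this gap is not firm.

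**Figure D5:**
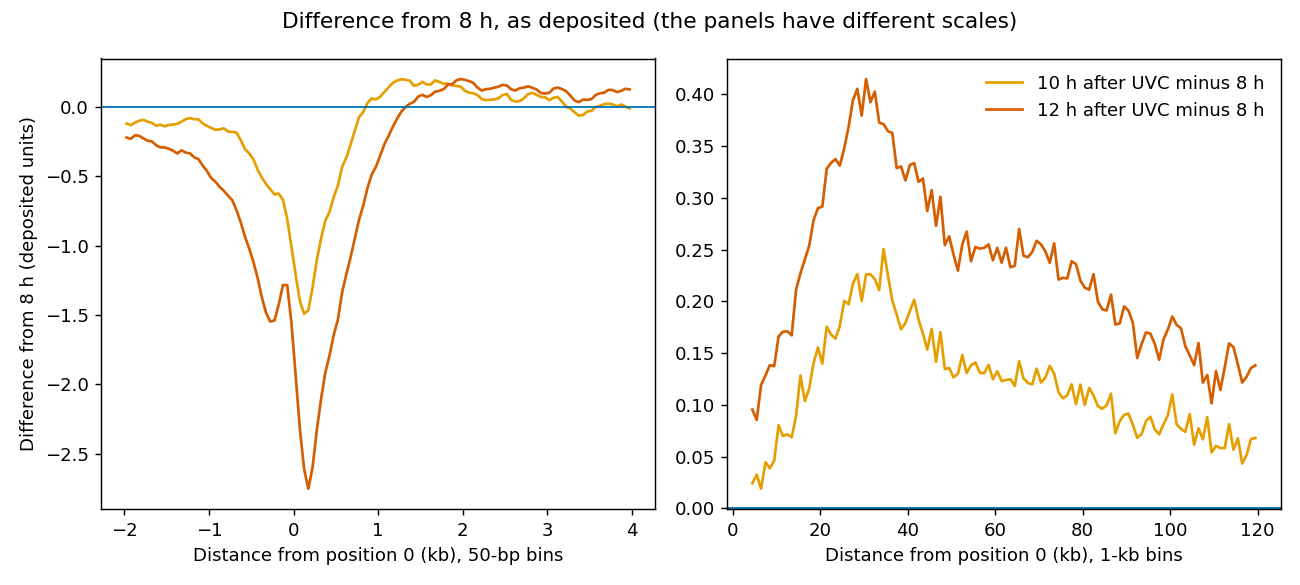
Signal at 10 h and at 12 h minus signal at 8 h (deposited units) against distance from position 0, in 50-bp bins (left) and 1-kb bins (right, with its own vertical scale); the blue line at 0 is 8 h. At the start the 12 h line reaches -2.75 and the 10 h line -1.49, from 0.85 to 1.85 kb the 10 h line is above the other two, and in the body the 12 h line peaks at 0.415 from 30 to 31 kb with the 10 h line between it and 0 throughout.

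How far 10 h had come on the way from 8 h to 12 h differed by position. In the deposited values it had covered 37.8% of the difference from -2 to -1 kb, 39.6% from -1 to 0 kb and 41.5% from 0 to 1 kb. Within the first kilobase it had covered 50.6% from 0 to 0.5 kb and 19.4% from 0.5 to 1 kb, so the peak was nearly midway while the stretch behind it was still close to 8 h. In the body it had covered 29.1% from 4 to 10 kb, 50.7% from 10 to 30 kb, 55.8% from 30 to 60 kb, 49.9% from 60 to 100 kb and 48.8% from 100 to 120 kb. From 1 to 4 kb the share was 93.9%, but 12 h and 10 h did not differ beyond counting error there (log2 0.0014, 95% counting interval -0.0026 to 0.0053). That share also averages unlike stretches. From 1 to 2 kb 10 h was above both beyond counting error, and from 2 to 4 kb it had covered 32.6%. On the own-sum scale the shares were 45.9% from 0 to 1 kb, 52.8% from 0 to 0.5 kb, 32.5% from 0.5 to 1 kb, 42.9% from 1 to 4 kb, 67.7% from 4 to 10 kb, 66.2% from 30 to 60 kb and 41.4% from 60 to 100 kb. No share is given on that scale from 10 to 30 kb and from 100 to 120 kb, where 8 h and 12 h did not differ beyond counting error.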

How the data were processed

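Per the submitters' processing notes, BWA 0.5.9 and the human build hg19 (GRCh37) were used. The list of genes averaged, strand handling and library scaling are not given in the sources used here. The authors deposited 1 profile per library of signal (average read coverage, linear scale) at each base from -2000 to 120000, from single-end 51-base reads per the labels. No gene or coordinate enters such a profile, so no gene or sequence is named and the reference was not used.

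All values of a profile (100%) were whole multiples of 1 step, and successive differences had their lowest autocorrelation at 250 bases, taken as the read extension. Reads were recovered from both, and counting intervals assume reads placed at random. Mean signal was taken in 50-bp bins (-2 to 4 kb), 1-kb bins (4 to 120 kb) and windows, as deposited and divided by each profile's mean from 0 to 100 kb; intervals treat that mean as fixed. Share intervals are Wilson's (SciPy 1.17.1). A crossing needed 5 bins in a row. The code was tested on 10 simulated profile pairs. Bins named are extremes of the ratio, peaks, crossings and the largest excursions of 10 h. Others illustrate the course, and these, the smaller windows, areas, the upstream hump and distance to untreated were chosen after the values were seen. The comparison and windows were chosen with earlier results of these data known.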

Additional observations from a re-analysis of the deposited data

How the results depend on the processing

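The log2 ratio of 12 h to 8 h from 0 to 1 kb stayed below 0 under its 4 alternatives: -0.44 with own sums, -0.17 with scaling to the mean from -2 to -1 kb, -0.52 with the lowest 1-kb mean subtracted and -0.29 with medians. From 1 to 10 kb the 0.031 as deposited reversed to -0.070 with own sums and to -0.014 after subtraction, and was 0.20 with upstream scaling and 0.024 with medians. The own-sum reversal follows from the constant shift of -0.10 and the upstream values from a shift of 0.17. The other reversal is also arithmetic. The subtracted level was 1.86 at 8 h and 1.997 at 12 h, and the means from 1 to 10 kb were 4.94 and 5.04. The subtracted level thus differed by more than the means did. From 10 to 30 kb these alternatives gave 0.00081 (own sums), 0.27 (upstream) and 0.10 (medians), with 0.10 after subtraction unmoved, and from 30 to 100 kb 0.031, 0.30, 0.20 (subtraction) and 0.13 (medians) against 0.13 as deposited. The log2 change of the start-to-body ratio (-0.45) was -0.59 with a start of 0 to 0.5 kb, -0.46 with a body of 10 to 100 kb, -0.37 with a body of 1 to 10 kb, -0.42 with medians and -0.64 after subtraction. At a fold of 1.2 instead of 1.1, 27 of 120 bins of 50 bp were lower and 0 of 116 bins of 1 kb were higher. At a 5% threshold, 106 of 116 bins of 1 kb were higher, and with own sums at a fold of 1.1, 0 were. The share of bins with 10 h between was 100% (50 bp) and 81.0% (1 kb) with own sums, and the crossing moved from 1.35 to 19 kb. Of 41 alternatives 13 left the value within its margin, 26 moved it and 2 reversed it. Some of these outcomes were fixed in advance, so the tally is not a measure of robustness. A count of 0 at a fold of 1.1 must stay 0 at 1.2, and own sums shift every window ratio by the same amount. The subtracted level, from 118 to 119 kb in all 3 libraries, was 59.0% to 59.2% of the mean from 0 to 100 kb and may hold transcription. No paired analysis was possible because each time has 1 library.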
